A study of Mus musculus with 12 samples.

Results

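Chemokine receptors are the membrane receptors by which leukocytes read gradients of small secreted chemokines. The 9 members described here were Ccr1, Ccr2, Ccr3, Ccr7, Cxcr2, Cxcr3, Cxcr4, Cxcr6 and Cx3cr1. They were chosen by gene name and not by a cut on their values, though with earlier results of these data known. All 9 were found among the 53801 gene rows of the deposited counts. The 12 libraries, in 4 groups of 3, were made from FVB mouse skin tumors, the cutaneous squamous cell carcinoma (SCC). The FceRIa-positive and FceRIa-negative groups were tumor macrophages, CD45+ F4/80+ in the sort and then split by FceRIa on the surface. FceRIa is the chain of the high-affinity IgE receptor that holds IgE. The reporter-positive and reporter-negative groups were basal tumor cells sorted as Rosa-YFP+ CD49f+ CD29+ and divided by an mScarlet reporter of TGF-beta signalling. The labels give no age, treatment or driver of the lineage mark, and do not say whether libraries came from separate animals, so p-values cover the spread among these libraries, which for the tumor cells may be technical.

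These receptors are seven-membrane-span proteins that act through inhibitory G proteins to direct migration, and each binds its own set of ligands. In mouse blood, Ccr2 marks classical monocytes, which leave the bone marrow and enter inflamed tissue through it, and Cx3cr1 is high on patrolling monocytes and on many tissue macrophages. Cxcr2 is best known from neutrophils, Ccr7 from dendritic cells on their way to lymph nodes, Ccr3 from eosinophils, and Cxcr3 and Cxcr6 from T and NK cells, while Ccr1 and Cxcr4 are used by many leukocytes.

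The gene IDs placed 5 of the 9 receptors on chromosome 9 of the mouse genome GRCm38. Cxcr6, Ccr1, Ccr3 and Ccr2 lie together at chr9:123806475-124113557, a stretch of 307 kb that holds 6 protein-coding genes in GENCODE M21, and Cx3cr1 lies at chr9:119901616-120069879. Cxcr2 is at chr1:74153989-74161246, Cxcr4 at chr1:128588199-128592293, Ccr7 at chr11:99144196-99155077 and Cxcr3 at chrX:101731535-101734269. Cx3cr1 was the one receptor with exonic bases shared with another annotated gene, 78 of 4505 bases or 1.7%, with Gm33858 on the opposite strand. Promoter sequences were found for 8 of the 9 receptors in RefSeq. The 4 receptors with the most transcript in macrophages are printed here, from 250 bases before the RefSeq start, 5' to 3' on the strand of the gene (GRCm38.p6), because 3 of them were higher and 1 was lower in FceRIa-positive macrophages in the comparison that follows. Capitals mark matches to the motifs named after them. They are Cx3cr1 (chr9:120068247-120068546, minus strand), Cxcr4 (chr1:128592250-128592549, minus strand), Ccr1 (chr9:123968643-123968942, minus strand) and Ccr2 (chr9:124101933-124102232, plus strand).
Cx3cr1: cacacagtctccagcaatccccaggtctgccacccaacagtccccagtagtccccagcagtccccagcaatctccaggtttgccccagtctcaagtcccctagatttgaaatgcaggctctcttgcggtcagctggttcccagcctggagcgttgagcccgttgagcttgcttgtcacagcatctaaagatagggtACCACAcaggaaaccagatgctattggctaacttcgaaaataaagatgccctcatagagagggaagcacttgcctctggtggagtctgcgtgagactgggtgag
Cxcr4: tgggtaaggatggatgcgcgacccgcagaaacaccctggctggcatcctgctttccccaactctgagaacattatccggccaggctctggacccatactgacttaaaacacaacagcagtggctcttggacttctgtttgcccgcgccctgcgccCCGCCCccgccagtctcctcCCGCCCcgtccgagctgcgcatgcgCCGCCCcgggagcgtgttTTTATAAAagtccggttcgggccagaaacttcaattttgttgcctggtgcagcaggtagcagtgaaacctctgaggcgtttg
Ccr1: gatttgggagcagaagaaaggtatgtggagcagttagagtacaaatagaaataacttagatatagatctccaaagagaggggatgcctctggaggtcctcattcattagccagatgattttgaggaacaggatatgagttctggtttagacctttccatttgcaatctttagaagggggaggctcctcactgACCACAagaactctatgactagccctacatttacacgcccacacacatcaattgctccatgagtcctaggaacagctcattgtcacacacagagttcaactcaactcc
Ccr2: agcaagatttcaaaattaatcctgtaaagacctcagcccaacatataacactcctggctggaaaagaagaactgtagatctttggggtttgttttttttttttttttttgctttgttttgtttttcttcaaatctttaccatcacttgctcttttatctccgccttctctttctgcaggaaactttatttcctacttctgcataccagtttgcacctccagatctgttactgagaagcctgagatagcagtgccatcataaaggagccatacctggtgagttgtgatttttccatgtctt
The motifs were searched on both strands. The RUNX core TGTGGT occurred once in the Cx3cr1 promoter and once in the Ccr1 promoter, and in 4 of the 8 receptor promoters and 16.8% of all 32851 RefSeq promoters of that length. The Cxcr4 promoter held the GC box GGGCGG at 3 places and the TATA motif TATAAA at 2 overlapping places, and was the one receptor promoter of the 8 with either. These motifs occurred in 35.7% and 13.6% of all promoters. The PU.1 core AGGAAGT was found in 1 of the 8, that of Cxcr3 (9.4% of all promoters), and the AP-1 motif TGANTCA in 1, that of Ccr3 (7.8%). The C/EBP motif TTNNGCAA (10.8% of all promoters), the IRF motif of 2 GAAA cores with any 2 bases between them (3.4%) and the hypoxia core ACGTG (19.6%) were in none of the 8. The Ccr2 window held none of the 8 motifs. A match is a run of letters, not a measured binding site.

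The macrophage libraries held 33704786 to 40041144 counts and the tumor cell libraries 27951632 to 35088897. Counts were scaled to library size as CPM within each table, and to library size and gene length as TPM to set one gene beside another. Transcripts of Fcer1a were near 0 in both macrophage groups (0.0299 to 0.188 CPM in FceRIa-positive and 0 to 0.0931 CPM in FceRIa-negative libraries), so the surface sort could not be checked from its own transcript. Libraries of the same replicate number deviated together from their group means in both cell types. Each comparison was therefore tested with edgeR's quasi-likelihood test without the replicate number (unpaired) and with it as a block (paired), at an adjusted p of 0.05 over all genes. The macrophage numbers differed in sex-linked transcripts, so replicates 2 and 3 came from different animals. The replicates 1 held both Xist and Ddx3y, and the labels do not say whether a library pools animals. Xist was at 0.161 CPM in FceRIa-positive replicate 2 and 0.0931 CPM in FceRIa-negative replicate 2, against 211 to 541 CPM in the other 4 libraries, and Ddx3y was at 0.179 and 0.0896 CPM in the replicates 3. In the tumor cells, replicates 1 and 3 of each group were nearly the same library by their counts (chi-square per degree of freedom 1.65 and 3.13, against 46.8 to 98.9 for pairs with replicate 2), which leaves less independent replication than 3 libraries would give.

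In macrophages of both groups, 4 of the 9 receptors carried nearly all of their summed transcript: Ccr1, Cx3cr1, Cxcr4 and Ccr2. FceRIa-positive libraries held more Cx3cr1, Cxcr4 and Ccr1 and less Ccr2, Cxcr2 and Ccr7 than the FceRIa-negative libraries of the same number. In the unpaired fit 0 of the 9 receptors passed in either direction, where 0% of the 14988 genes tested did, and at an unadjusted p under 0.05 there was 1 higher (Cx3cr1) and 1 lower (Cxcr6), against 8.29% and 7.35% of genes. In the paired fit 3 of the 9 were higher and 3 were lower, against 10.8% and 10.2% of all genes tested (21.0% in either direction). DESeq2 with the block gave the same counts of 3 and 3, against 9.16% and 8.49% of genes. The FceRIa-positive library was the higher one in all 3 numbers for 4 receptors and the lower one for 4, against 28.1% and 28.4% of genes. The groups did not overlap for 2 receptors, Cx3cr1 and Ccr1, both higher, against 11.5% of genes higher and 9.44% lower (20.9% in all). All 9 receptors passed the filter on low counts in macrophages.

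**Figure D1:**
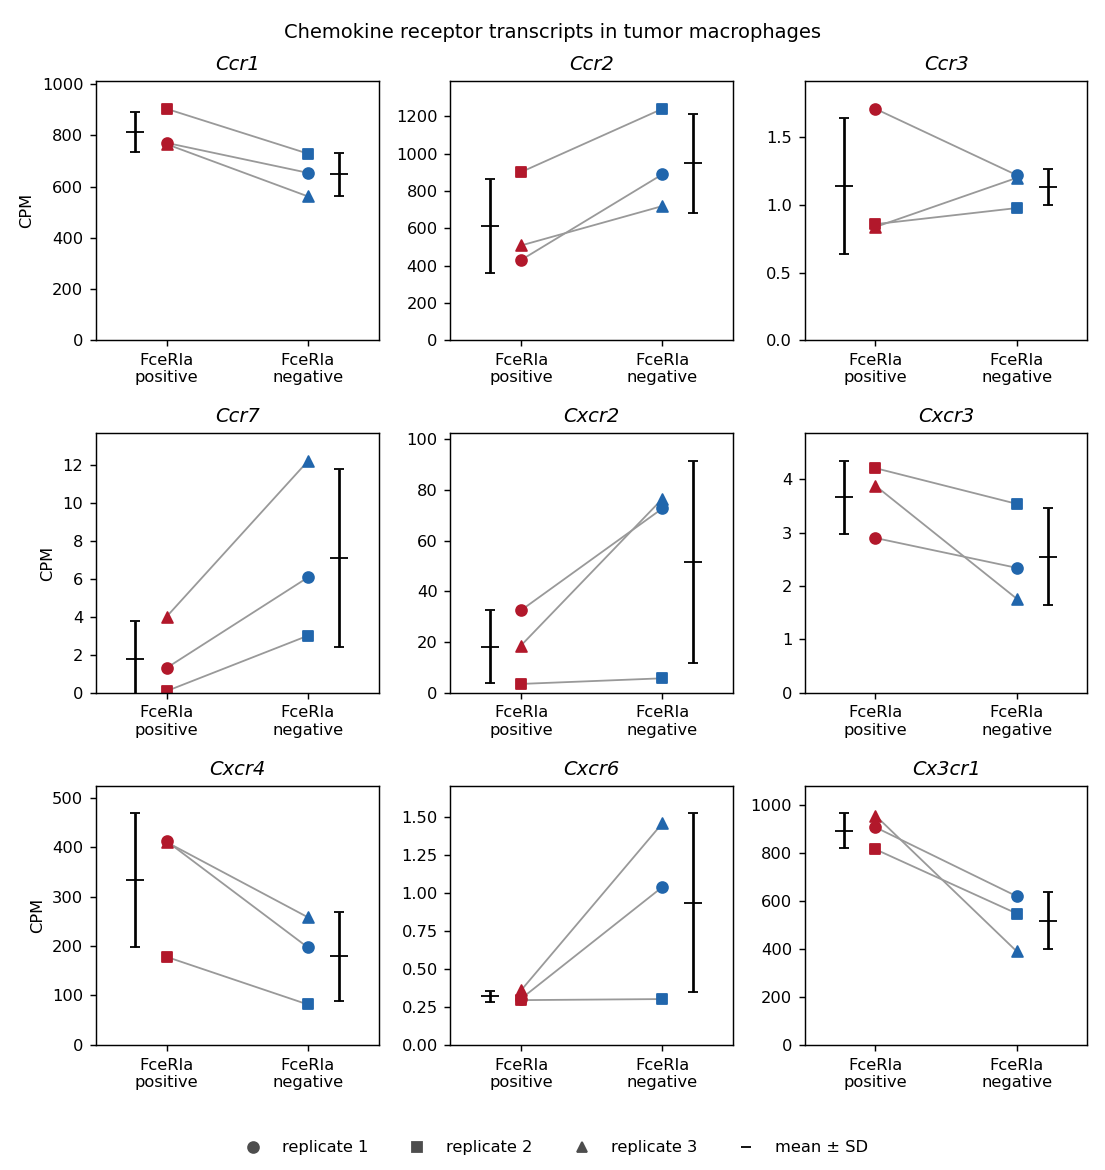
CPM of each receptor in every macrophage library, FceRIa-positive in red and FceRIa-negative in blue, with grey lines joining libraries of the same replicate number and black bars giving the mean ± SD (n = 3; bars are cut at 0). The lines for Cx3cr1, Cxcr4, Ccr1 and Cxcr3 are lower at the FceRIa-negative end in all 3 numbers, and those for Ccr2, Cxcr2, Ccr7 and Cxcr6 are higher there, with Cxcr6 almost level in replicate 2.

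Cx3cr1, the receptor for the membrane-bound chemokine fractalkine, stood at 908, 816 and 957 CPM in FceRIa-positive replicates 1, 2 and 3, against 620, 548 and 390 CPM in FceRIa-negative replicates 1, 2 and 3. Every FceRIa-positive library was above every FceRIa-negative library. The log2 difference was 0.78 ± 0.19 in the unpaired fit (SE, adjusted p = 0.105) and 0.81 ± 0.15 in the paired fit (adjusted p = 0.00742). DESeq2 without the replicate number gave an adjusted p of 0.00517, and Cx3cr1 was the one receptor of the 9 it called (1 higher and 0 lower, against 3.58% and 3.76% of genes, 7.34% in all).

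Cxcr4, the receptor for the stromal chemokine Cxcl12, stood at 412, 178 and 410 CPM in FceRIa-positive replicates 1, 2 and 3 and at 197, 81.7 and 258 CPM in FceRIa-negative ones. The groups overlapped, because replicate 2 was the lowest library of both groups. Within numbers the FceRIa-positive library was 2.09, 2.18 and 1.59 times the FceRIa-negative one. The difference was 0.89 ± 0.47 unpaired (adjusted p = 0.456) and 0.95 ± 0.11 paired (adjusted p = 0.000893).

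Ccr1, a receptor of inflammatory chemokines such as Ccl3 and Ccl9, had 771, 904 and 766 CPM in FceRIa-positive libraries and 654, 729 and 562 CPM in FceRIa-negative ones. The groups did not overlap, but the difference was small, at 0.33 ± 0.15 unpaired (adjusted p = 0.375) and 0.33 ± 0.09 paired (adjusted p = 0.0372). This call was lost without any one of the 3 pairs, with adjusted p of 0.0841, 0.19 and 0.0554 without pair 1, 2 and 3.

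Ccr2, the receptor through which classical monocytes enter tissue, ran the other way, at 430, 901 and 508 CPM in FceRIa-positive and 889, 1240 and 719 CPM in FceRIa-negative libraries. The highest value of the FceRIa-positive group was in replicate 2, above 2 of the FceRIa-negative libraries, so the groups overlapped. The difference was -0.63 ± 0.33 unpaired (adjusted p = 0.464) and -0.67 ± 0.13 paired (adjusted p = 0.00994), and it stayed called without each pair, with 0.0488 as the largest adjusted p. Cx3cr1, Cxcr4 and Cxcr2 also kept their paired calls, with largest adjusted p of 0.0448, 0.0271 and 0.0494, each without pair 1. As a bulk measurement, fewer cells of a type and less RNA per cell cannot be told apart here.

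The ratio of Ccr2 to Cx3cr1 CPM, which does not depend on how a library was scaled, was 0.473, 1.1 and 0.531 in FceRIa-positive replicates 1, 2 and 3. It was 1.43, 2.26 and 1.85 in FceRIa-negative ones. The groups did not overlap. In CPM, which takes no account of gene length, Ccr2 exceeded Cx3cr1 in all FceRIa-negative libraries and in FceRIa-positive replicate 2. In TPM it did so only in FceRIa-negative replicates 2 (587 against 390 TPM) and 3 (316 against 257 TPM). The log2 ratio averaged -0.62 ± 0.66 in FceRIa-positive and 0.86 ± 0.33 in FceRIa-negative libraries (SD, n = 3 each), a difference of -1.48 with a two-sided exact permutation p of 0.1, the smallest that 3 against 3 allows. Within the numbers 1, 2 and 3 the difference was -1.6, -1.03 and -1.8.

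Genes of the monocyte and resident-type macrophage lists were set beside these receptors. Of the 8 resident-type genes all were higher in the paired fit and none passed unpaired, and the groups overlapped for none of them (10.8% of all genes were called higher and 11.5% lay higher without overlap). Their summed CPM was 9530 to 10800 in FceRIa-positive and 4600 to 6620 in FceRIa-negative libraries. Of the 10 monocyte genes, 8 were lower and 1, F13a1, was higher in the paired fit (10.2% and 10.8% of all genes). Unpaired, 0 were called. Among the 8 were Treml4 (-0.47 ± 0.12, adjusted p = 0.0276), Nr4a1 (-0.48 ± 0.13, adjusted p = 0.0377) and Ace (-1.17 ± 0.22, adjusted p = 0.00767), opposite in direction to Cx3cr1. The groups overlapped for Treml4 and for Nr4a1 (unpaired -0.63 ± 0.76, adjusted p = 0.817). Ace was low, with means of 0.968 CPM in FceRIa-positive and 2.21 CPM in FceRIa-negative libraries. F13a1, which encodes a clotting factor subunit made by monocytes and macrophages, made up most of the sum of that list in FceRIa-positive libraries, with 1730, 445 and 796 CPM, against 326, 132 and 119 CPM in FceRIa-negative ones (sums of 522 to 2040 CPM in FceRIa-positive and 249 to 726 CPM in FceRIa-negative libraries). The monocyte marker Ly6c2 was at 2.57, 0.778 and 4.39 CPM in FceRIa-positive and 5.62, 2.19 and 7.86 CPM in FceRIa-negative replicates 1, 2 and 3. It was thus lowest in the replicates 2, where Ccr2 was highest. Keratinocyte genes also moved with the sort, 6 of 6 lower in the paired fit (10.2% of all genes) and 0 unpaired. Their sums were 202 to 2250 CPM in FceRIa-positive and 272 to 3120 CPM in FceRIa-negative libraries. The part of other cell types in the receptor differences was not tested.

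Cxcr2, the neutrophil receptor for Cxcl1 and its relatives, had 32.5, 3.43 and 18.6 CPM in FceRIa-positive and 72.7, 5.65 and 76.5 CPM in FceRIa-negative replicates 1, 2 and 3. Both replicates 2 were far below the other libraries, and the groups overlapped. The difference was -1.51 ± 1.03 unpaired (adjusted p = 0.593) and -1.39 ± 0.21 paired (adjusted p = 0.00302). S100a9, a calcium-binding protein abundant in neutrophils, was at 109, 18.5 and 59.3 CPM in FceRIa-positive and 249, 23.2 and 211 CPM in FceRIa-negative libraries. It was likewise lowest in both replicates 2 and lower in the FceRIa-positive library of each number. Of the 8 neutrophil genes 6 passed the filter. In the paired fit 3 were lower and 0 higher, against 10.2% and 10.8% of all genes, and 0 passed unpaired. Csf3r (-0.37 ± 0.22, adjusted p = 0.277) and Mmp8 (0.24 ± 0.16, adjusted p = 0.338) were not called. The list summed to 366, 147 and 261 CPM in FceRIa-positive and 607, 129 and 621 CPM in FceRIa-negative replicates 1, 2 and 3. In replicate 2 the sum was thus higher in the FceRIa-positive library, where Cxcr2 was lower. S100a9 was also among the genes that followed Cxcr2 most closely of 8808 in these same libraries (Pearson r = 0.995). The defining genes Ly6g, Ngp and Camp stayed under 1 CPM in every library. The part of neutrophil RNA in the Cxcr2 difference was not tested.

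Ccr7, the lymph node homing receptor, was counted 47, 3 and 134 times in FceRIa-positive and 244, 129 and 408 times in FceRIa-negative replicates 1, 2 and 3. This was 1.3, 0.0805 and 4 CPM in FceRIa-positive against 6.07, 3 and 12.2 CPM in FceRIa-negative libraries. The value of FceRIa-positive replicate 3 lay above that of FceRIa-negative replicate 2, so the groups overlapped. The difference was -1.99 ± 1.07 unpaired (adjusted p = 0.465) and -2.33 ± 0.40 paired (adjusted p = 0.00531), and the paired call was lost without pair 1 (adjusted p = 0.0745). Ccl22, a chemokine made by mature dendritic cells, was at 3.04, 1.77 and 4.45 CPM in FceRIa-positive and 27.7, 26.8 and 65.9 CPM in FceRIa-negative libraries. Of the 8 genes of the mature migratory dendritic cell list 5 passed the filter. In the paired fit 3 were lower, against 10.2% of all genes, and 0 passed unpaired. Sums were 42.4 to 51.5 CPM in FceRIa-positive and 67.9 to 122 CPM in FceRIa-negative libraries, and Il4i1, Apol7c and Slco5a1 stayed under 1 CPM. Socs2 gave most of the FceRIa-positive sums, with a mean of 35.2 CPM, against 31.3 CPM in FceRIa-negative libraries. It was not called (0.18 ± 0.09, adjusted p = 0.207 in the paired fit), nor was Nudt17 (-1.13 ± 0.51, adjusted p = 0.16). All 4 Langerhans cell genes were lower in the paired fit (10.2% of all genes), and 0 unpaired. Their sums were 86.1 to 117 CPM in FceRIa-positive and 401 to 1010 CPM in FceRIa-negative libraries. Of the 7 conventional dendritic cell genes 6 passed the filter. In the paired fit 4 were lower and 1 was higher (10.2% and 10.8% of all genes), and 0 passed unpaired. Flt3 (-2.85 ± 0.22, adjusted p = 0.000234), Dpp4, Itgae and Zbtb46 were the lower ones. Clec10a was higher (0.68 ± 0.11, adjusted p = 0.0034). The list summed to 145 to 211 CPM in FceRIa-positive and 144 to 202 CPM in FceRIa-negative libraries. The part of these cells in the Ccr7 difference was not tested.

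Cxcr6, the receptor for Cxcl16 found on T and NK cells, was counted 11, 11 and 12 times in FceRIa-positive and 42, 13 and 49 times in FceRIa-negative replicates 1, 2 and 3. FceRIa-negative replicate 2 was level with the FceRIa-positive libraries (0.302 CPM, against 0.295 to 0.359 CPM in FceRIa-positive ones). The paired difference of -1.41 ± 0.43 did not pass (adjusted p = 0.0523), and it was called without pair 2 (adjusted p = 0.0057). The T cell receptor component Cd3g had the same pattern, at 0.276, 0.241 and 1.08 CPM in FceRIa-positive and 15.6, 0.675 and 14.9 CPM in FceRIa-negative libraries. The 10 genes of the T and NK cell list summed to 3.89 to 6.39 CPM in FceRIa-positive libraries. In FceRIa-negative ones they summed to 8.05 to 37.1 CPM. Of the 10 genes 6 passed the filter, and all 6 were lower in the paired fit (10.2% of all genes) and 0 unpaired. The part of T and NK cells in the Cxcr6 values was not tested.

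**Figure D2:**
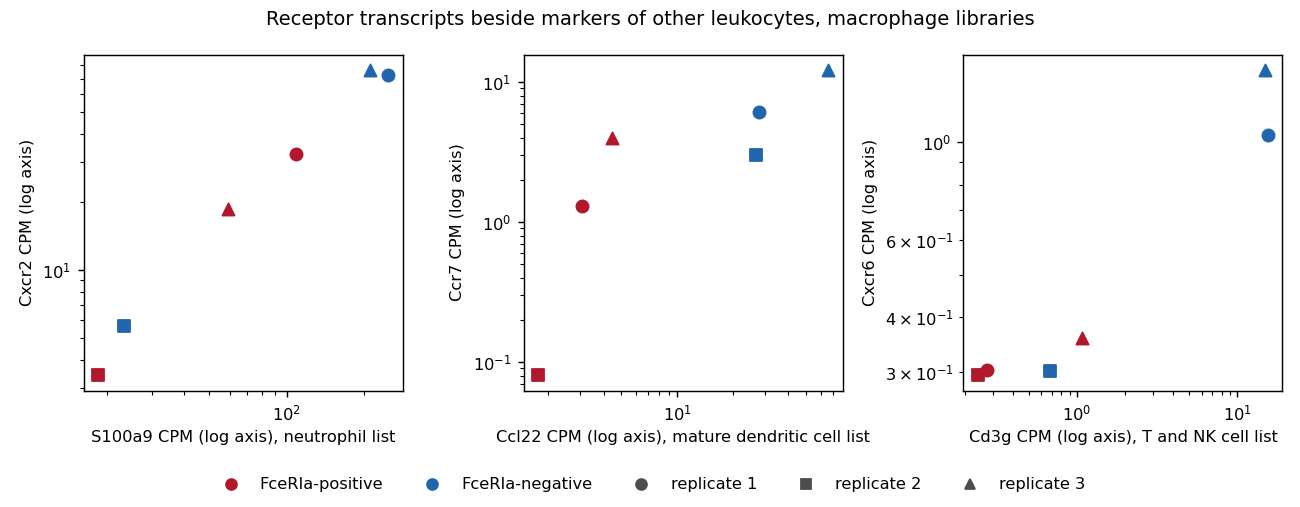
Cxcr2, Ccr7 and Cxcr6 (vertical, CPM on log axes) against 1 marker each of neutrophils, mature dendritic cells and T cells (horizontal, CPM on log axes) in the 6 macrophage libraries. FceRIa-negative replicate 2 (blue square) lies beside the FceRIa-positive libraries for Cxcr2 and Cxcr6, and in the Ccr7 panel its Ccl22 value of 26.8 CPM lies with the other FceRIa-negative libraries.

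Cxcr3, the receptor for the interferon-induced chemokines Cxcl9 and Cxcl10, was low throughout and did not share the pattern of Cxcr6. It had 2.9, 4.21 and 3.88 CPM in FceRIa-positive and 2.34, 3.54 and 1.76 CPM in FceRIa-negative libraries. The FceRIa-positive library was higher in all 3 numbers, but the paired difference of 0.55 ± 0.22 did not pass (adjusted p = 0.116).

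Ccr3, the eotaxin receptor of eosinophils, was counted 62, 32 and 28 times in FceRIa-positive and 49, 42 and 40 times in FceRIa-negative libraries, about 1 CPM in each. The paired difference was -0.04 ± 0.28 (adjusted p = 0.947), and its sign changed with the settings. The eosinophil granule gene Prg2 was at 0 in all 6 libraries and the 5 matched genes of that list summed to 3.59 to 8.28 CPM in FceRIa-positive and 4.08 to 7.21 CPM in FceRIa-negative libraries. Of the 10 mast cell and basophil genes 8 passed the filter. In the paired fit 0 were higher and 3 lower, Kit, Hdc and Mcpt8 (10.8% and 10.2% of all genes), and 0 passed unpaired. That list summed to 33.7, 9.63 and 41.4 CPM in FceRIa-positive and 74.6, 18.5 and 157 CPM in FceRIa-negative replicates 1, 2 and 3. The part of these cells in the Ccr3 values was not tested.

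**Figure D3:**
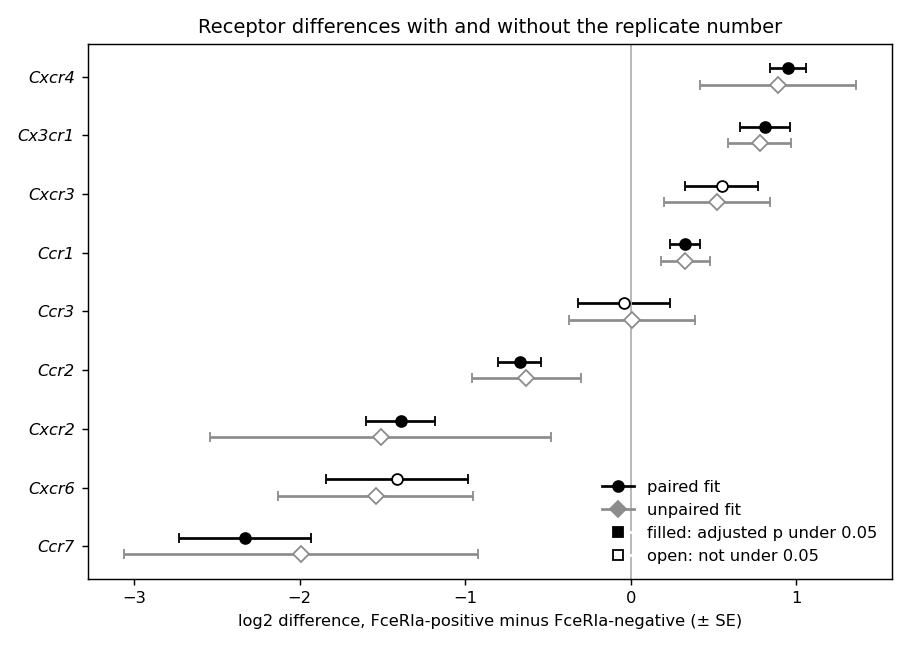
Log2 difference of each receptor, FceRIa-positive minus FceRIa-negative macrophages, with its SE, in the paired fit (black circles) and the unpaired fit (grey diamonds). Filled symbols have an adjusted p under 0.05, which 6 receptors reach in the paired fit and 0 in the unpaired fit, and the paired errors of Cxcr4, Ccr2, Cxcr2 and Ccr7 are the ones that shrink most and their estimates move by less than the unpaired SE.

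Per unit of length, Ccr1 led in both macrophage groups, with 841 ± 136 TPM in FceRIa-positive and 703 ± 118 TPM in FceRIa-negative libraries (SD, n = 3 each). In FceRIa-positive macrophages it was followed by Cx3cr1 at 577 ± 28.5, Cxcr4 at 531 ± 202 and Ccr2 at 267 ± 125 TPM. The ranges of Cx3cr1 and Cxcr4 overlapped, as did those of Cxcr4 and Ccr2. In FceRIa-negative macrophages Ccr2 was second at 433 ± 139 TPM, before Cx3cr1 at 354 ± 84.7 and Cxcr4 at 299 ± 142 TPM, with overlapping ranges between each and the next. Its share of the summed receptor TPM was 8.16, 18.1 and 9.45% in FceRIa-positive and 20.6, 29.9 and 18.8% in FceRIa-negative replicates 1, 2 and 3. The other 5 receptors lay between 0.479 TPM (Cxcr6) and 17.3 TPM (Cxcr2) in the means of FceRIa-positive libraries and between 1.05 TPM (Ccr3) and 50.8 TPM (Cxcr2) in those of FceRIa-negative libraries. The 9 receptors together summed to 2360, 2270 and 2100 TPM in FceRIa-positive and 1920, 1970 and 1690 TPM in FceRIa-negative libraries, without overlap.

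For the 5 receptors of at least 10 CPM, the genes whose log2 CPM followed them most closely over the 6 macrophage libraries were taken from 8808 genes. Cx3cr1 was followed by Apoe, the lipid carrier of macrophages (Pearson r = 0.999), Tmem37 (0.998) and the lysosomal phospholipase gene Pla2g15 (0.995). Cxcr4 was followed by Gla, a lysosomal galactosidase (0.995), the signal transducer Stat6 (0.993) and the growth factor Csf1 (0.992). Cxcr2 was followed by S100a9, the interferon-induced gene Ifitm1 and the receptor kinase Grk6, all at 0.995. Ccr1 was followed by Tifa, an adaptor of innate signalling (0.997), Stard3nl (0.993) and Btbd9 (0.99), and Ccr2 by Trim68 (0.977), Hps4 (0.975) and Lin9 (0.974). The 6 libraries share pairs, groups and depth, and these are the highest of 8808 values each, so they describe the libraries only.

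The ligands of the 9 receptors were read in the same macrophage libraries, where 18 of the 20 listed passed the filter. In the paired fit 8 were higher and 1 was lower, against 10.8% and 10.2% of all genes. In the unpaired fit 0 passed, and at an unadjusted p under 0.05 there were 5 higher and 1 lower, against 8.29% and 7.35% of all genes. The median log2 difference was 0.46, beside 0 for all genes. All 3 listed ligands of Ccr2, the receptor that was lower, were higher. Ccl7, a monocyte attractant, was at 116, 65.1 and 115 CPM in FceRIa-positive and 22.2, 23.1 and 8.07 CPM in FceRIa-negative libraries, a paired difference of 2.51 ± 0.36 (adjusted p = 0.00225). Ccl12 and Ccl2 were also without overlap between the groups, with paired differences of 1.88 ± 0.28 (adjusted p = 0.00263) and 1.43 ± 0.24 (adjusted p = 0.00484). Cx3cl1, the fractalkine gene and ligand of Cx3cr1, was low and moved the other way from its receptor. It had 1.99, 1.1 and 2.15 CPM in FceRIa-positive and 4.08, 2.68 and 6.03 CPM in FceRIa-negative libraries, a paired difference of -1.27 ± 0.18 (adjusted p = 0.00254).

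Of the Ccr1 ligands, Ccl6 (0.99 ± 0.14, adjusted p = 0.00214) and Ccl9 (0.61 ± 0.13, adjusted p = 0.0155) were higher in the paired fit, as was Ccl24, a Ccr3 ligand (0.65 ± 0.15, adjusted p = 0.0164). Of the Cxcr2 ligands, Cxcl1 (1.34 ± 0.22, adjusted p = 0.00467) and Cxcl3 (0.71 ± 0.21, adjusted p = 0.0462) were higher. Cxcl2, a neutrophil attractant, was not called (-0.21 ± 0.21, adjusted p = 0.525). Without pair 1, Ccl6 and Cx3cl1 kept their paired calls, and the other 7 ligands lost them, with adjusted p of 0.0512 (Ccl12) to 0.359 (Cxcl3). Ccl24 also lost it without pair 2 (adjusted p = 0.0551). Cxcl16, the Cxcr6 ligand, had the highest mean CPM of the ligands, at 849, 792 and 916 CPM in FceRIa-positive and 821, 662 and 651 CPM in FceRIa-negative libraries, and was not called (0.27 ± 0.11, adjusted p = 0.126). The Ccr7 ligands were listed at or near 0, Ccl21a at 0 in all 6 libraries and Ccl19 with at most 0.0268 CPM.

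**Figure D4:**
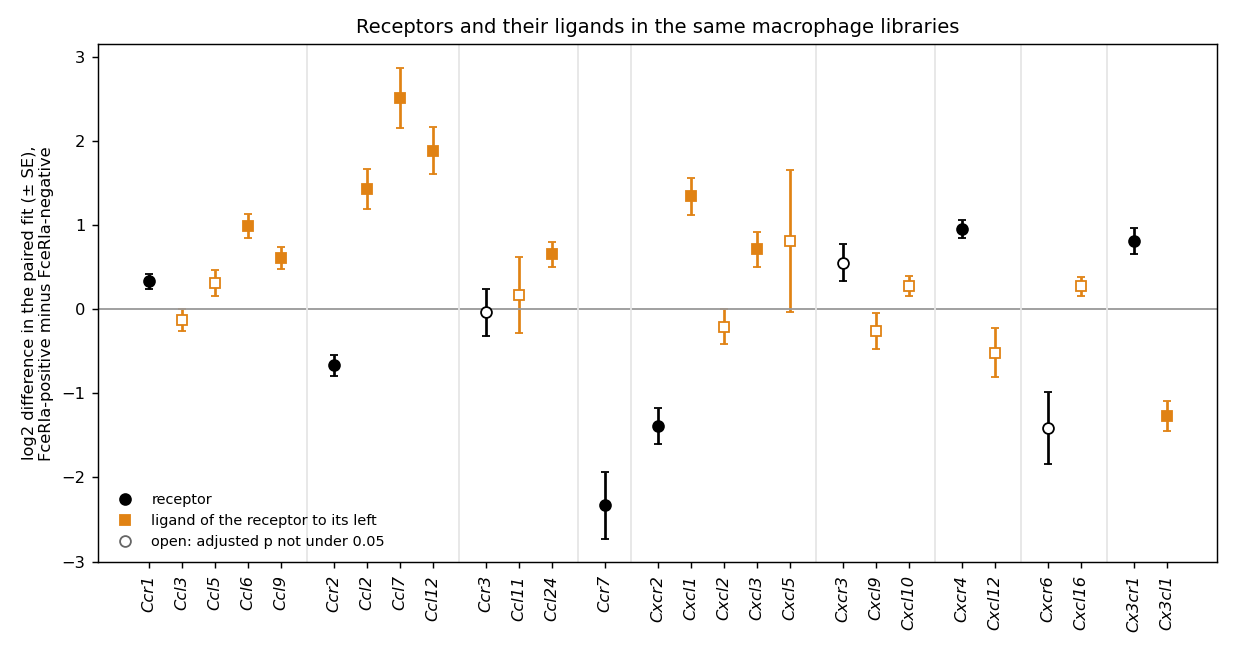
Paired log2 difference (± SE), FceRIa-positive minus FceRIa-negative macrophages, of each receptor (black circles) and of its listed ligands that passed the filter (orange squares, to the right of the receptor). Ccr2 at -0.67 stands beside 3 ligands between 1.43 and 2.51, and Cx3cr1 at 0.81 beside Cx3cl1 at -1.27.

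Other chemokine receptors were mostly low in macrophages, and 9 of the 13 listed passed the filter. The highest was Ccrl2, at 335 ± 235 CPM in FceRIa-positive and 517 ± 502 CPM in FceRIa-negative libraries (SD, n = 3 each). It was not called in the paired fit (-0.26 ± 0.22, adjusted p = 0.446). In the paired fit 1 was higher and 3 were lower (10.8% and 10.2% of all genes), and in the unpaired fit 0 passed (0 higher and 1 lower unadjusted, against 8.29% and 7.35%), with a median log2 difference of -0.63. Ackr3, a scavenging receptor for Cxcl12 and thus a partner of Cxcr4, was higher (0.97 ± 0.15, adjusted p = 0.00329). It was low, at 4.02 to 11.3 CPM in FceRIa-positive and 2.3 to 5.89 CPM in FceRIa-negative libraries, and the groups overlapped. Ccr6, the receptor for Ccl20, was lower (-1.92 ± 0.12, adjusted p = 0.000121), as were Cxcr1 (-1.87 ± 0.39, adjusted p = 0.0124) and Ccr10 (-1.13 ± 0.33, adjusted p = 0.0474), both under 2 CPM. Ccr6 varied widely, over 0.107 to 16.1 CPM in FceRIa-positive and 0.651 to 56.9 CPM in FceRIa-negative libraries, with overlap. Of the 25 genes of receptor signalling, 0 were higher and 3 lower in the paired fit and 0 passed unpaired, with a median log2 difference of -0.01. The lower ones are a share near the 10.2% of all genes. The 3 were Rgs18 and Rgs2, which speed the shut-off of G proteins (-1.64 ± 0.15, adjusted p = 0.000396, and -0.39 ± 0.09, adjusted p = 0.0196), and the adhesion kinase gene Ptk2b (-0.40 ± 0.09, adjusted p = 0.0145).

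In the basal tumor cells the order of the receptors was a different one. Cxcr2 led in both groups, at 8.66 ± 1.4 TPM in reporter-positive and 8.96 ± 2.02 TPM in reporter-negative libraries (SD, n = 3 each), and its range lay above that of the next receptor, Cxcr4, in both. The 9 receptors summed to 13.4, 15.4 and 13.9 TPM in reporter-positive and 13.3, 13.6 and 14.3 TPM in reporter-negative replicates 1, 2 and 3. Cxcr2 had 10.2, 8.62 and 10 CPM in reporter-positive and 10.1, 7.39 and 11.6 CPM in reporter-negative libraries, and the groups overlapped. The unpaired difference was -0.01 ± 0.18 (adjusted p = 0.985). The neutrophil list, whose genes S100a8 and S100a9 keratinocytes also express, summed to 365 CPM in reporter-positive replicate 2, of which S100a8 and S100a9 gave 137 and 227 CPM. It summed to 86.3 and 86.2 CPM in the other reporter-positive and to 43.3 to 75.1 CPM in the reporter-negative libraries.

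**Figure D5:**
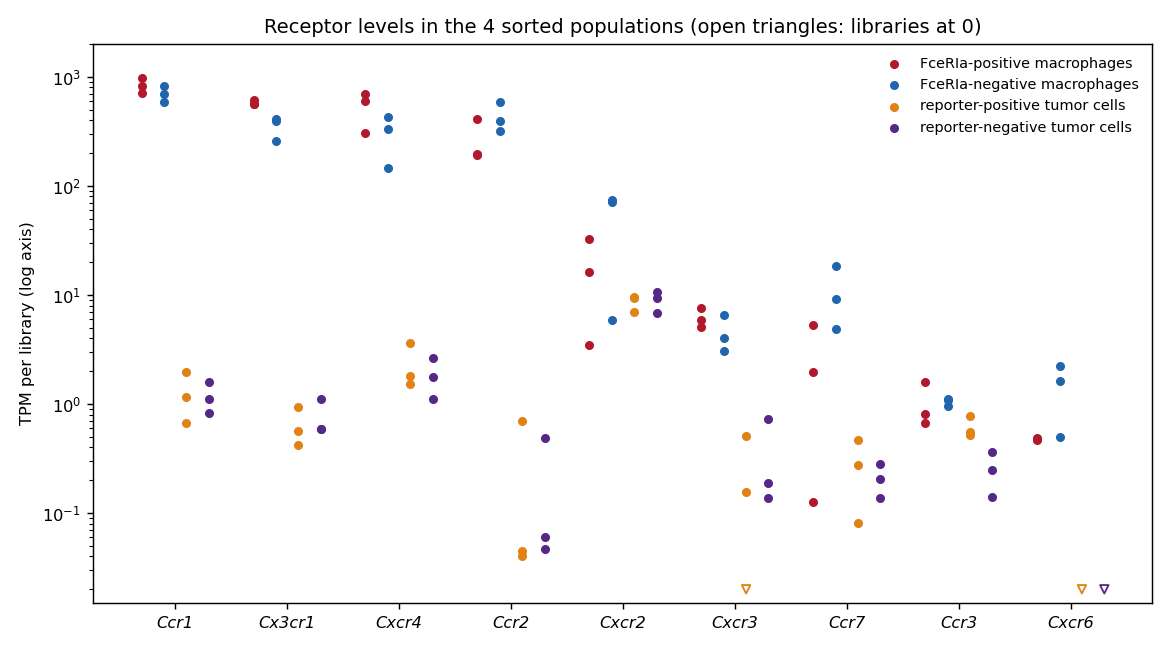
TPM of each receptor in every library of the 4 sorted populations, on a log axis, with libraries at 0 drawn as open triangles at the bottom. Ccr1, Cx3cr1, Cxcr4 and Ccr2 lie above 100 TPM in every macrophage library and below 10 TPM in every tumor cell library, while the tumor cell values of Cxcr2 (6.76 to 10.7 TPM) lie within the range of its macrophage values.

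Of the 9 receptors, 5 passed the filter in the tumor cells (Ccr1, Ccr3, Cxcr2, Cxcr4 and Cx3cr1). In the unpaired fit 0 were called in either direction, against 0.573% of the 13604 genes higher and 0.235% lower (0.809% in all), and 1 was higher (Ccr3) and 0 lower at an unadjusted p under 0.05 (11.1% and 8.34% of genes). In the paired fit 1 was higher and 0 lower, against 10.7% and 7.34% of all genes (18.0% in either direction), so the count is near the background. That receptor was Ccr3, counted 20, 21 and 25 times in reporter-positive and 10, 5 and 15 times in reporter-negative replicates 1, 2 and 3. It was at 0.634, 0.681 and 0.893 CPM in reporter-positive and 0.285, 0.163 and 0.426 CPM in reporter-negative libraries, without overlap, as for 14.3% of genes higher and 13.6% lower. The difference was 1.31 ± 0.38 unpaired (adjusted p = 0.138) and 1.33 ± 0.32 paired (adjusted p = 0.0374), and the call was lost without pair 1 (adjusted p = 0.0564) or pair 3 (0.0889).

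The macrophage receptors were at trace levels in the tumor cells and highest in the replicates 2. Ccr1 ranged over 0.666 to 2.24 CPM in reporter-positive and 0.828 to 1.63 CPM in reporter-negative libraries, with the top value of each group in replicate 2, and was not called (0.19 ± 0.49, adjusted p = 0.885 unpaired). Ccr2 was counted 3, 59 and 3 times in reporter-positive and 5, 36 and 4 times in reporter-negative replicates 1, 2 and 3, and did not pass the filter. Csf1r, the growth factor receptor of macrophages, was at 2.73, 11.2 and 2.54 CPM in reporter-positive and 1.91, 8.07 and 1.56 CPM in reporter-negative libraries, likewise highest in the replicates 2. The part of macrophage RNA in these values was not tested. Cxcr4 (0.44 ± 0.50, adjusted p = 0.706) and Cx3cr1 (-0.17 ± 0.45, adjusted p = 0.889) were not called. Ccr7 had 2 to 9 counts and Cxcr3 0 to 14 counts in a library. Cxcr6 had 0 counts in all 6 libraries, and 3 counts, the limit that a count of 0 allows, correspond to 0.0852 to 0.107 CPM for counting error alone.

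Among the ligands Cxcl1, a Cxcr2 ligand, had the highest mean CPM in the tumor cells. The Cxcr2 ligand Cxcl3 averaged 71.8 CPM in reporter-positive and 74.2 CPM in reporter-negative libraries. Cxcl16, the Cxcr6 ligand, averaged 70 and 58.5 CPM, above the Cxcr2 ligand Cxcl2 at 45.3 and 36.7 CPM. Cxcl1 was at 423, 94.9 and 421 CPM in reporter-positive and 402, 92.7 and 388 CPM in reporter-negative replicates 1, 2 and 3, with replicate 2 low in both groups. Of the 20 ligands 13 passed the filter, 0 were called unpaired (2 higher and 0 lower at an unadjusted p under 0.05, against 11.1% and 8.34% of all genes), and in the paired fit 3 were higher and 1 lower, against 10.7% and 7.34%. The single lower one is near that background. Their median log2 difference was 0.3, beside 0 for all genes. The higher ones were Ccl2 (0.71 ± 0.13, adjusted p = 0.0169), Cxcl16 (0.26 ± 0.05, adjusted p = 0.0186) and Cxcl2 (0.35 ± 0.08, adjusted p = 0.0292), and Cxcl5 was lower (-0.41 ± 0.10, adjusted p = 0.0342). The values of Cxcl1 (0.08 ± 0.05, adjusted p = 0.302) and Cxcl3 (-0.03 ± 0.05, adjusted p = 0.752) differed little between the groups. Of the other chemokine receptors 2 of 13 passed the filter and 0 were called in either fit. One of them was Ackr3, at 215, 103 and 206 CPM in reporter-positive and 218, 117 and 209 CPM in reporter-negative libraries. In receptor signalling, 22 of 25 genes passed the filter, 1 was higher and 0 lower unpaired (0.573% and 0.235% of all genes), and 3 were higher and 1 lower paired. The paired counts are near the 10.7% and 7.34% of all genes. The one called in both fits was Rgs2, at 26.7, 22.2 and 27.1 CPM in reporter-positive and 10.9, 6.22 and 10.2 CPM in reporter-negative libraries (1.48 ± 0.21, adjusted p = 0.0484 unpaired). It kept that call without reporter-positive replicate 2 and lost it without each of the other 5 libraries. In the paired fit the arrestin gene Arrb1 (1.19 ± 0.08, adjusted p = 0.00227) and Rgs10 (0.74 ± 0.14, adjusted p = 0.0205) were also higher, and the receptor kinase gene Grk6 was lower (-0.37 ± 0.06, adjusted p = 0.012).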

How the data were processed

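The 12 libraries were made from 100 ng of total RNA with Trizol and Illumina TruSeq v2, per the labels' protocols. The authors deposited raw counts of reads per gene. The submitters' processing notes name FastQC, STAR and mm10 (GRCm38), with no versions. Neither the counter nor the strand setting or annotation is given in the sources used here. The tables' 4 further count columns match no sample and were not used. Titles gave the groups and replicate numbers.

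The tests were run in edgeR 4.0.16 under R 4.3.3 (TMM factors, filterByExpr, quasi-likelihood test, Benjamini-Hochberg adjustment over all genes tested, threshold 0.05), each comparison on its own 6 libraries, without the replicate number and with it as a block. Libraries with the same number had correlated deviations from their group means, with r of 0.73, 0.831 and 0.762 for numbers 1, 2 and 3 in macrophages. The tumor cell values were 0.555, 0.734 and 0.56. All were over 0.1, so the numbers were taken to pair the samples. In the tumor cells number 1 of one group correlated as well with number 3 of the other (0.561 and 0.572), so numbers 1 and 3 are not told apart there. Pairing comes from the data, since no label says what the numbers stand for. Both macrophage replicates 2, and none of the other libraries used, carry the tag New in their column names. The labels do not explain it, and what it marks cannot be told apart from animal or sex. SE is the log2 difference over the root of F. TPM used the union of exons in GENCODE M21, which held 53706 of the 53801 gene IDs. Alternatives were DESeq2 1.42.0, other scaling, no filter, unadjusted p and the omission of single libraries. The block fits without 1 pair, the DESeq2 block fit and TPM over the longest coding transcript were chosen after seeing the data. Scripts were tested on simulated data.

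The receptors and gene lists were chosen with earlier results of these data known. Named genes were all receptors, up to 4 genes a list with the smallest p among those called, all called ligands, and for each receptor of at least 10 CPM the 3 genes with the highest correlation. Ly6c2, Treml4, Nr4a1, Ace, Prg2, Cd3g, Clec10a and the uncalled genes given with values were named beside these, with their values seen. Of the list genes 1, Siglecf, was not matched by name. Some chemokine receptors were not analysed here.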

Additional observations from a re-analysis of the deposited data

How the results depend on the processing

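With the replicate block, the counts in macrophages became 3 higher and 3 lower for the 9 receptors, 1 and 3 for the other chemokine receptors, 8 and 1 for the ligands, and 0 and 3 for receptor signalling. In the tumor cells the block gave 1 higher receptor, 3 higher and 1 lower ligands, and 3 higher and 1 lower signalling genes. The block without pair 1, 2 and 3 gave 2, 2 and 2 higher and 2, 4 and 3 lower macrophage receptors, and in the tumor cells 1 higher receptor without pair 2 and 0 without pair 1 or 3. The block in DESeq2 gave 3 higher and 3 lower macrophage receptors, while DESeq2 left Ccr3 in the tumor cells without an adjusted p. DESeq2 without the block called 1 higher receptor, 4 higher and 1 lower ligands and 2 lower signalling genes in macrophages, and 1 higher and 1 lower signalling gene in tumor cells. Without the filter 4 ligands were higher and 1 signalling gene lower in macrophages. At an unadjusted p under 0.05 there were 1 higher and 1 lower receptor, 1 lower other receptor, 5 higher and 1 lower ligands, and 2 higher and 2 lower signalling genes in macrophages, against 1 higher receptor, 2 higher ligands and 1 higher and 1 lower signalling gene in tumor cells. Leaving out 1 library gave 0 to 1 higher and 0 to 1 lower signalling genes in tumor cells, and 0 calls among the receptors, other receptors and ligands of both cell types and signalling in macrophages. The cell type lists were not counted in this way. The fit with the block has 2 residual degrees of freedom and the fit without it 4, and the biological coefficient of variation was 0.102 with and 0.302 without it in macrophages and 0.0764 and 0.188 in tumor cells. Ranked by CPM in place of TPM, 5 of 9 receptors kept their rank in FceRIa-positive macrophages, 5 in FceRIa-negative ones and 4 in reporter-negative tumor cells. The cause of these changes was not tested.

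The following signs changed, all of differences not called without the block. Cxcl3 in macrophages and Ccl2, Cxcl2 and Csf1r in tumor cells among them were called with it. Ccr3 in macrophages (0.01) was -0.04 with upper-quartile factors, -0.04 with the block, -0.06 with the block in DESeq2 and -0.35 with the block without pair 1. Cxcr2 in tumor cells (-0.01) was 0.01 with the block, 0.00 with the block in DESeq2, 0.00 without pair 1 and 0.12 without pair 3. Ccr1 in tumor cells was -0.12 with the block without pair 2. Leaving out 1 library gave ranges across 0 for Ccr3 (-0.41 to 0.17) and Cxcl3 (-0.23 to 1.38) in macrophages, and for Ccr1 (-0.41 to 0.52), Cxcr2 (-0.17 to 0.14), Cxcr4 (-0.17 to 0.81), Cx3cr1 (-0.66 to 0.21), Ccl2 (-0.06 to 1.57), Cxcl2 (-0.09 to 0.64) and Csf1r (-0.56 to 1.67) in tumor cells. The Ccr2 to Cx3cr1 ratio stayed between -1.86 and -1.24. Low counts limit the tumor cell values, where Ccr3 had 5 to 25 counts a library and 4 receptors did not pass the filter.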
